A study of Mus musculus with 11 samples.

Results

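The genes described here encode 10 brakes on mitogen-activated protein kinase (MAPK) signalling: 6 dual-specificity phosphatases (Dusp1, Dusp2, Dusp4, Dusp5, Dusp6 and Dusp10), the Sprouty proteins Spry1 and Spry2, and the Sprouty-related proteins Spred1 and Spred2. They were taken by symbol from a table of 52636 genes, each symbol matched 1 row, and all 10 passed the filter on low counts. Their mRNA was measured by RNA sequencing in 11 libraries of 3 groups of splenic CD8 T cells from C57BL/6 mice. CD45RBhi NP396+ memory cells (4 libraries) and CD45RBlo NP396+ memory cells (4 libraries) came from mice given 200000 pfu of LCMV Armstrong, a virus strain that causes an acute infection, and were sorted on days 42 to 45 with a tetramer that binds T cells specific for 1 viral nucleoprotein peptide. Naive cells (3 libraries) were CD44lo CD8 T cells, whose labels repeat the infection text and carry an entry of 6 to 8 weeks of unstated meaning, so the ages of naive and memory donors cannot be compared. The labels do not say that replicates came from separate animals, and p-values measure the spread between these libraries, which may be technical in part.

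As background, the T cell receptor and cytokine receptors activate RAS, which starts the RAF, MEK and ERK kinase relay, and parallel relays end in the kinases JNK and p38. Dual-specificity phosphatases switch these last kinases off by removing phosphate from both the threonine and the tyrosine of their activation loop. Sprouty and SPRED proteins act upstream of ERK, and the genes of many of these brakes are themselves switched on by the pathway they restrain.

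Libraries held 18.02 to 23.15 M counts. Levels are in CPM (counts per M of the TMM-scaled library size), and a gene with no count could have been present at up to 3 counts, or 0.130 to 0.170 CPM. Such limits cover counting error only. Cd8a ran from 930 to 1050 CPM in CD45RBhi, 891 to 1060 in CD45RBlo and 1220 to 1380 in naive libraries, and Cd44, the adhesion receptor used in the sort, from 187 to 328, 176 to 270 and 12.1 to 17.8 CPM. Markers of other cells differed between memory and naive libraries. The summed level of 10 B cell markers was 193 to 499 CPM in CD45RBhi, 191 to 436 in CD45RBlo and 1143 to 1298 in naive libraries. Most of it was Ighm, and Pax5 was at 0 in both memory groups. Against naive, 7 of the 9 tested were called lower in CD45RBhi and 8 in CD45RBlo. Cd22 alone was called higher in both, at 7.93, 13.9 and 1.88 CPM on average in CD45RBhi, CD45RBlo and naive libraries. The summed level of 10 erythroid and platelet markers was 1.52 to 3.35, 3.79 to 30.1 and 252.5 to 543 CPM in the same order, with Ppbp at 0 in both memory groups. That of 10 macrophage, monocyte and neutrophil markers was 3.04 to 10.9, 7.97 to 16.0 and 26.9 to 47.5 CPM, with Mpo and S100a9 at 0 in every group. Of the 5 tested, 4 were called lower in each memory group. Itgam was called higher in both, at 5.33, 6.58 and 0.727 CPM on average in the same order. For 6 NK cell markers, several of which memory CD8 T cells also express, the summed level was 669 to 1342, 1170 to 1923 and 39.2 to 48.6 CPM. Klra8 and Klra4 were at 0 in naive libraries. For 5 markers of CD4 and regulatory T cells it was 9.94 to 14.5, 11.5 to 16.2 and 5.53 to 7.04 CPM, most of the memory sum being Zbtb7b (7.86, 8.59 and 0.102 CPM on average). Foxp3 averaged 0, 0.0236 and 1.09 CPM and Cd4 0.0373, 0.0971 and 0.224 CPM in the same order, and Ikzf2 and Cd40lg did not pass against naive. The part of these markers' cells in the comparisons with naive cells was not tested. In bulk samples, fewer cells that express a gene and less RNA per cell cannot be told apart.

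The comparisons with naive cells ask how each memory population differs from antigen-inexperienced cells. Dusp5 was 5.95-fold higher in CD45RBhi and 5.84-fold higher in CD45RBlo than in naive libraries, and Dusp6 was 4.97-fold and 3.22-fold lower. Dusp2, Dusp6, Dusp10, Dusp1, Spred1 and Spred2 fell in both memory groups, Dusp5, Dusp4 and Spry2 rose in both, and Spry1 fell in CD45RBhi libraries with a call that did not hold under several alternatives. With edgeR's quasi-likelihood test, adjusted over 13735 genes, 10 of 10 genes passed in CD45RBhi against naive, where 41.5% of all tested genes did. Of these, 3 rose and 7 fell, against 22.3% and 19.1% of all tested genes. In CD45RBlo against naive 9 of 10 passed, with 3 higher and 6 lower, against a background of 42.2% in either direction, 22.4% higher and 19.8% lower. The groups did not overlap for 10 of 10 genes in CD45RBhi against naive, 3 higher and 7 lower, against 47.4% of all tested genes (24.1% higher, 23.3% lower). They did not overlap for 8 of 10 genes in CD45RBlo against naive, 2 higher and 6 lower, against 49.6% (25.2% higher, 24.3% lower). Spry2 passed the filter on low counts in 0 of 3 naive libraries and Dusp4 in 2 of 3. Spry2 entered the test through the memory groups alone and so had to differ, and its count supports nothing. The median log2 fold change of the 10 genes was -1.10 in CD45RBhi and -0.76 in CD45RBlo, and that of all tested genes was -0.01 in each. Spry2 had the highest value of the 10 also when set at its lower bound, so that bound could not move the median. The comparisons share the naive libraries, so the values of the memory groups against naive are not independent of each other.

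**Figure D1:**
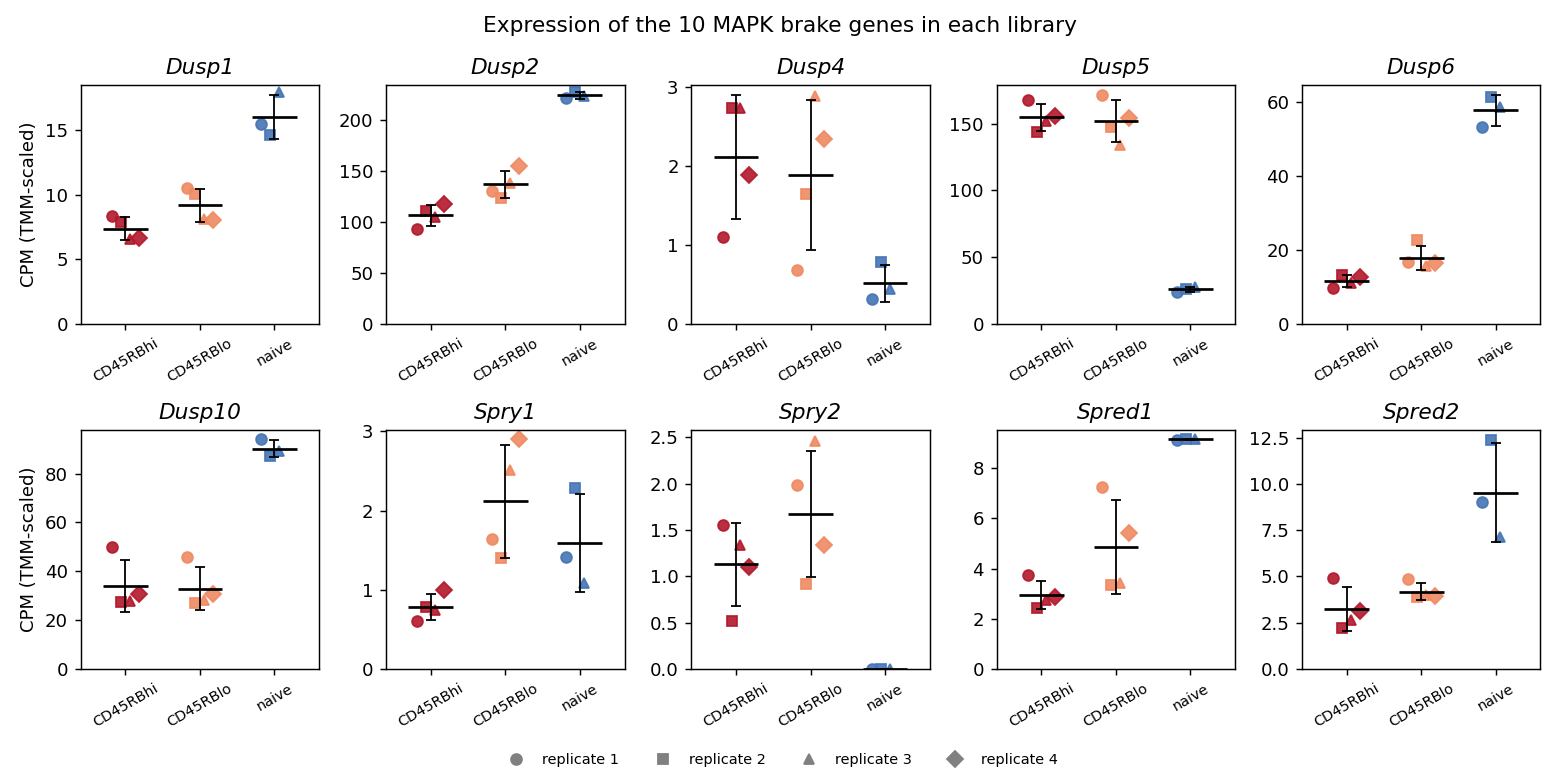
CPM (TMM-scaled, y axis from 0) of each of the 10 genes in each library, with CD45RBhi, CD45RBlo and naive groups from left to right. Points are libraries with a marker for each replicate number, long lines are group means and error bars are SD. Dusp5 lies at 134 to 172 CPM in the memory libraries and at 24.0 to 27.8 CPM in naive libraries, and Dusp6 at 9.68 to 22.7 against 53.1 to 61.5 CPM.

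Among the nuclear phosphatases, Dusp5, which acts on ERK, had the largest increase that could be fitted against a level above 0. Dusp5 had 167.8, 143.5, 152.3 and 155.8 CPM in CD45RBhi libraries, 171.7, 147.6, 134.3 and 154.6 CPM in CD45RBlo libraries, and 24.0, 26.2 and 27.8 CPM in naive libraries. Every memory library lay far above every naive one, and the memory groups overlapped. The log2 fold change was 2.57 ± 0.107 (SE) in CD45RBhi and 2.55 ± 0.107 in CD45RBlo against naive (adjusted p = 1.29e-09 and 1.42e-09, edgeR). Dusp5 (ENSMUSG00000034765) lies on GRCm38 chromosome 19 from 53529109 to 53542431 on the plus strand. GENCODE M21 places an antisense gene, AC137853.2, over 547 of its exonic bases, and since the strandedness of the counting is not given in the sources used here, reads of the pair cannot be told apart.

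Dusp2, also called PAC-1, is a nuclear phosphatase found mainly in blood cells. It had 93.2, 110.2, 104.4 and 117.8 CPM in CD45RBhi libraries, 130.3, 123.5, 137.7 and 155.2 CPM in CD45RBlo libraries, and 221.3, 227.6 and 223.4 CPM in naive libraries. The 3 groups did not overlap, and the order ran from CD45RBhi at the low end through CD45RBlo to naive. Dusp2 fell by 1.07 ± 0.0965 log2 units in CD45RBhi and by 0.71 ± 0.0964 in CD45RBlo against naive (adjusted p = 1.77e-06 and 6.37e-05, edgeR). The gene (ENSMUSG00000027368) lies on chromosome 2 from 127336159 to 127338376 on the plus strand.

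Dusp1, the immediate early phosphatase MKP-1, which acts on p38, JNK and ERK, had the order of Dusp2 at a lower level. It was at 8.33, 7.90, 6.57 and 6.64 CPM in CD45RBhi libraries, 10.5, 10.03, 8.12 and 8.06 CPM in CD45RBlo libraries, and 15.4, 14.6 and 17.9 CPM in naive libraries. Both memory groups lay below all naive libraries and overlapped each other by CD45RBhi replicate 1. It fell by 1.12 ± 0.156 and 0.80 ± 0.156 log2 units (adjusted p = 9.43e-05 and 0.00112, edgeR). Dusp1 (ENSMUSG00000024190) lies on chromosome 17 from 26505590 to 26562128 on the minus strand. The RefSeq start used for its promoter below lies inside this GENCODE span. Ergic1 on the opposite strand shares 11 of its exonic bases.

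Dusp4, the nuclear phosphatase MKP-2, was at low levels, with 22 to 63 counts in CD45RBhi, 12 to 54 in CD45RBlo and 7 to 15 in naive libraries. It was at 1.10, 2.73, 2.74 and 1.88 CPM in CD45RBhi libraries, 0.680, 1.65, 2.88 and 2.35 CPM in CD45RBlo libraries, and 0.320, 0.778 and 0.443 CPM in naive libraries. CD45RBlo replicate 1 lay within the naive range, and all other memory libraries lay above it. Dusp4 rose by 2.04 ± 0.531 log2 units in CD45RBhi and 1.88 ± 0.531 in CD45RBlo (adjusted p = 0.00779 and 0.0123, edgeR). The second call was lost without naive replicate 1 (log2 fold change 1.63, adjusted p = 0.057). Dusp4 (ENSMUSG00000031530) lies on chromosome 8 from 34807297 to 34819894 on the plus strand.

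Dusp6, the cytoplasmic phosphatase MKP-3, is specific to ERK and is a common readout of ERK activity. It had 9.68, 13.2, 10.99 and 12.6 CPM in CD45RBhi libraries, 16.8, 22.7, 15.5 and 16.5 CPM in CD45RBlo libraries, and 53.1, 61.5 and 58.6 CPM in naive libraries. As for Dusp2, no group overlapped another. The decrease was the largest of the 10 genes in both comparisons, with log2 fold changes of -2.31 ± 0.150 in CD45RBhi and -1.69 ± 0.147 in CD45RBlo (adjusted p = 8.5e-08 and 1.28e-06, edgeR). Dusp6 (ENSMUSG00000019960) lies on chromosome 10 from 99263231 to 99267489 on the plus strand.

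Dusp10, the phosphatase MKP-5, acts on JNK and p38 rather than on ERK. It had 50, 27.6, 28.0 and 30.7 CPM in CD45RBhi libraries, 45.7, 26.9, 28.0 and 30.9 CPM in CD45RBlo libraries, and 94.3, 87.2 and 89.3 CPM in naive libraries. All memory libraries lay below all naive ones, and replicate 1 was the highest library in both memory groups. Dusp10 fell by 1.41 ± 0.218 log2 units in CD45RBhi and 1.46 ± 0.218 in CD45RBlo (adjusted p = 0.000215 and 0.000151, edgeR). It (ENSMUSG00000039384) lies on chromosome 1 from 184013302 to 184075636 on the plus strand.

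The promoters of Dusp5, Dusp1 and Dusp6 are shown because Dusp5 rose, Dusp1 and Dusp6 fell, and Dusp5 and Dusp1 hold letters of known signal-response elements. They are the 250 bases before the RefSeq start on GRCm38.p6, 5′ to 3′ on the strand of the gene, and the capitals mark matches to the CArG box (the element bound by serum response factor), to the cyclic AMP response element (CRE, TGACGTCA) and to its shorter core (TGACG).
Dusp5 (chr19:53528895-53529144, plus strand): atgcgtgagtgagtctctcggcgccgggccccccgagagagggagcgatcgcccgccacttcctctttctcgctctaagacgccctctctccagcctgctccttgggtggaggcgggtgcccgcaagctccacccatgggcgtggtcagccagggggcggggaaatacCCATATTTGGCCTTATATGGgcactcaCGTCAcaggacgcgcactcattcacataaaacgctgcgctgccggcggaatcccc
Dusp1 (chr17:26508473-26508722, minus strand): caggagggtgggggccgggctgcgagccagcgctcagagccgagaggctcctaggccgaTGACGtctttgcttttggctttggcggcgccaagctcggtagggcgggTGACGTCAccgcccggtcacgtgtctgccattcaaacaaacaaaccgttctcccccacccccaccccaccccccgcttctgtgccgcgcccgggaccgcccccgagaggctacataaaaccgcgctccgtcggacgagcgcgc
Dusp6 (chr10:99262981-99263230, plus strand): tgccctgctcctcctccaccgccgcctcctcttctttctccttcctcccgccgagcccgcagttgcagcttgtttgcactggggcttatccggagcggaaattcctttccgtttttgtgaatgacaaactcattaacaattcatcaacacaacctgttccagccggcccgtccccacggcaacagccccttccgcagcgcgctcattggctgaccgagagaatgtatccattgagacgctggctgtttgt
In Dusp5 a pair of CArG boxes stands end to end, starting 82 and 72 bases before the start, and a CRE core on the other strand follows at 55. In Dusp1 a full CRE starts 143 bases before the start and a further core at 191, the full site holding a core on each strand. Dusp6 held no match to these elements in its window. Over 32851 windows of 300 bases (250 before to 50 after a start), searched on both strands, 1.63% held a CArG box, 1.79% the full CRE and 20.8% the core. Of the 9 genes with a promoter in the RefSeq table, Dusp5 alone held a CArG box, Dusp1 alone the full CRE, and Dusp1, Dusp2, Dusp5 and Spred2 the core. The AP-1 site TGANTCA (7.81% of windows), the ETS site CCGGAAG (8.86%) and TATAAA (13.6%) were in none of the 9. The GC box GGGCGG was in 7 of 9 (35.7% of windows), in all but Dusp6 and Spry2, and the E-box CACGTG in Dusp1 and Dusp2 (7.15%). G and C made up 56% (Spred2) to 70.8% (Spred1) of the 250 bases before the start in the 9 genes. The median over all promoters was 52.4%. The part of this difference in the GC box count was not tested. The entry for Dusp4 is missing. A match describes letters, not a bound site, and no match says only that the letters are not in this window.

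Compared per transcript length, the makeup of the group shifted more than its sum. In RPKM (CPM per kilobase of exon, lengths from GENCODE M21) the 10 genes summed to 135.6 ± 5.11 in CD45RBhi, 152.8 ± 10.6 in CD45RBlo and 179.5 ± 2.66 in naive libraries (SD, n = 4, 4 and 3). Dusp5 held 46.2% ± 2.02 of that sum in CD45RBhi, 40.2% ± 2.46 in CD45RBlo and 5.86% ± 0.376 in naive libraries. Dusp2 held 39.2% ± 4.03, 44.7% ± 3.74 and 62.3% ± 0.225 in the same order. In CD45RBhi libraries Dusp5 (62.6 ± 4.06 RPKM) ranked above Dusp2 (53.1 ± 5.18), in CD45RBlo libraries Dusp2 (68.2 ± 6.80) above Dusp5 (61.5 ± 6.30), and in each case their ranges overlapped. Dusp10 (11.2 and 10.8 RPKM), Dusp6 (3.71 and 5.72) and Dusp1 (2.22 and 2.77) followed in CD45RBhi and CD45RBlo, each range apart from the next. In naive libraries the order was Dusp2 (111.9 RPKM), Dusp10 (29.7), Dusp6 (18.4), Dusp5 (10.5) and Dusp1 (4.83), with no overlap between neighbours. Dusp4 and the Sprouty and SPRED genes stayed at or below 1.18 RPKM in every memory library, and most neighbours among them overlapped. In naive libraries Spred2 (2.06 RPKM) and Spred1 (1.35) stood above Spry1 (0.548), Dusp4 (0.187) and Spry2 (0).

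**Figure D2:**
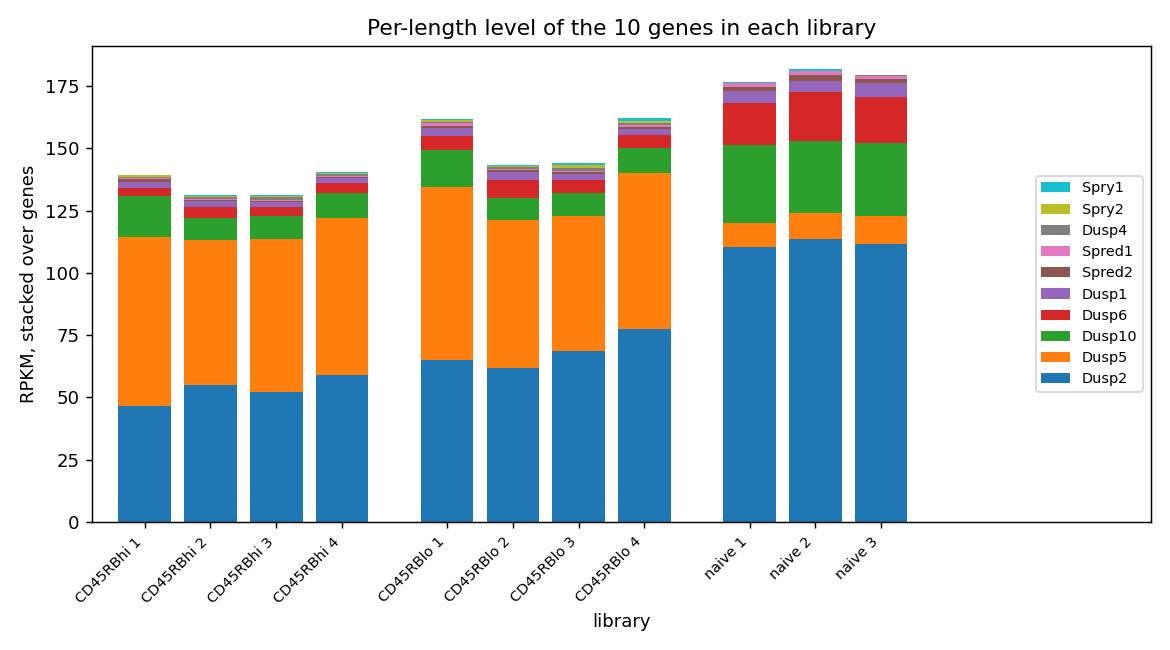
Stacked RPKM of the 10 genes in each library (y axis from 0), with CD45RBhi, CD45RBlo and naive libraries from left to right and 1 color per gene. Dusp5 takes 46.2% of the stack on average in CD45RBhi and 40.2% in CD45RBlo, against 5.86% in naive libraries, while Dusp2, Dusp10 and Dusp6 are largest in naive libraries.

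Spry2, a feedback inhibitor of receptor signalling to ERK, was detected in every memory library and in no naive library. It had 31, 12, 27 and 21 counts in CD45RBhi libraries (1.56, 0.521, 1.34 and 1.10 CPM), 35, 19, 46 and 29 counts in CD45RBlo libraries (1.98, 0.921, 2.46 and 1.34 CPM), and 0 counts in all 3 naive libraries. Set against 3 counts over the naive group (0.0488 CPM), it was at least 23.1-fold higher in CD45RBhi and at least 34.3-fold higher in CD45RBlo. It passed in both comparisons (adjusted p = 0.000159 and 6.77e-05, edgeR). Since it entered the test through the memory groups alone and so had to differ, these calls support nothing. Spry2 (ENSMUSG00000022114) lies on chromosome 14 from 105891947 to 105896819 on the minus strand.

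Spry1, its relative, is known to be induced by T cell receptor signals. It had 12, 18, 15 and 19 counts in CD45RBhi libraries (0.602, 0.781, 0.746 and 0.994 CPM), 29, 29, 47 and 63 counts in CD45RBlo libraries (1.64, 1.41, 2.51 and 2.90 CPM), and 31, 44 and 22 counts in naive libraries (1.42, 2.28 and 1.08 CPM). CD45RBhi libraries lay below all others, and CD45RBlo and naive libraries overlapped. Against naive, Spry1 fell by 1.02 ± 0.37 log2 units in CD45RBhi (adjusted p = 0.0416, edgeR), and its value in CD45RBlo was 0.41 ± 0.357 (adjusted p = 0.386, 95% interval -0.36 to 1.19). The call in CD45RBhi was lost without naive replicate 1 (adjusted p = 0.0673) or 2 (-0.68, adjusted p = 0.22) and without CD45RBhi replicate 1, 2 or 3 (adjusted p = 0.0881, 0.0653 and 0.0793). It was lost too without the filter on low counts (adjusted p = 0.0743), with the libraries of both groups alone (0.0526) and with a replicate block (0.128). Spry1 (ENSMUSG00000037211) lies on chromosome 3 from 37639947 to 37644598 on the plus strand, and the gene Gm42922 on the opposite strand covers 710 of its exonic bases.

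Spred1 and Spred2 encode membrane proteins that hold back RAS signalling, SPRED1 by bringing the RAS inactivator neurofibromin to the membrane. Spred1 had 3.76, 2.43, 2.74 and 2.88 CPM in CD45RBhi libraries, 7.25, 3.34, 3.42 and 5.44 CPM in CD45RBlo libraries, and 9.14, 9.18 and 9.16 CPM in naive libraries. Spred2 had 4.92, 2.21, 2.64 and 3.14 CPM in CD45RBhi libraries, 4.87, 3.88, 4.01 and 3.96 CPM in CD45RBlo libraries, and 9.05, 12.4 and 7.14 CPM in naive libraries. For both genes every memory library lay below every naive one, and the memory groups overlapped. Spred1 fell by 1.63 ± 0.268 log2 units in CD45RBhi and 0.91 ± 0.263 in CD45RBlo (adjusted p = 0.000335 and 0.0135, edgeR). Spred2 fell by 1.56 ± 0.271 and 1.19 ± 0.268 (adjusted p = 0.000516 and 0.00314). Spred1 (ENSMUSG00000027351) lies on chromosome 2 from 117121374 to 117182279 and Spred2 (ENSMUSG00000045671) on chromosome 11 from 19924375 to 20024026, both on the plus strand.

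**Figure D3:**
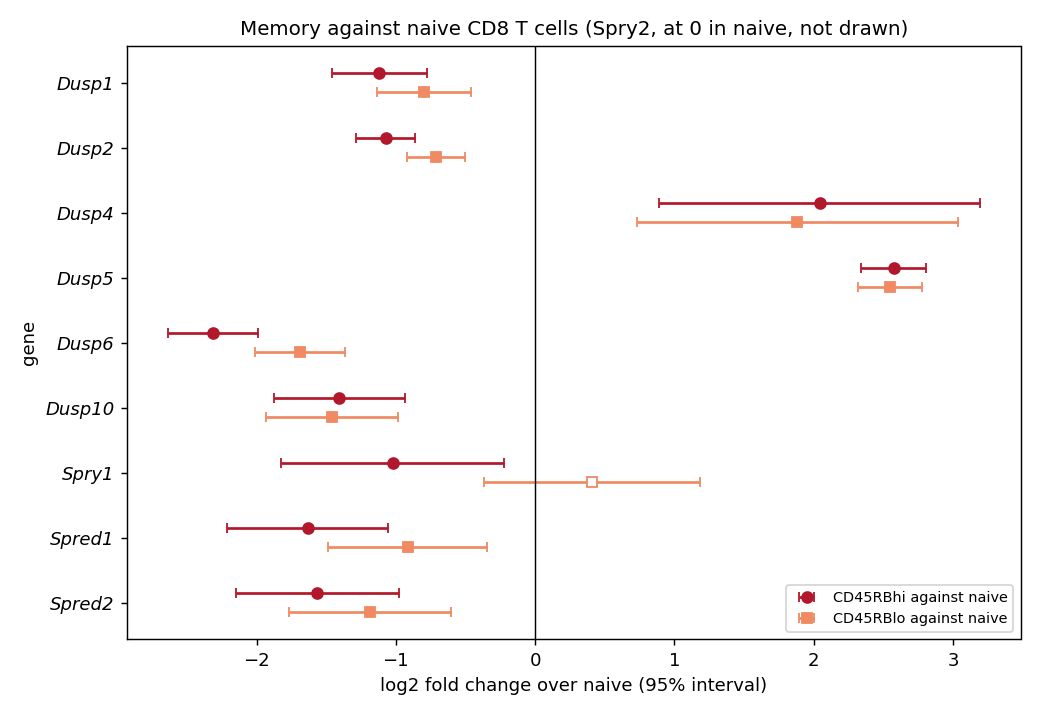
Log2 fold change over naive (x axis) with its 95% interval for CD45RBhi (circles, upper) and CD45RBlo (squares, lower) for 9 genes. Filled markers passed the test at an adjusted p of 0.05 and the open marker (Spry1, 0.41 in CD45RBlo) did not. Spry2, at 0 in naive libraries, is not drawn.

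Memory cells with much and with little of the CD45RB form of the phosphatase CD45 were then set against each other. Dusp2, Dusp6 and Spry1 were lower in CD45RBhi than in CD45RBlo libraries with no overlap between the groups, against 2.31% of all tested genes in that direction, 2.68% in the other and 4.99% in either. Without pairing, edgeR called 0 of 10 genes, against 0.124% of all tested genes (0.0801% higher, 0.0437% lower), and 4 (Dusp2, Dusp6, Spry1 and Spred1) had an unadjusted p under 0.05, against 9% of all tested genes. Same-numbered memory libraries deviated together from their group means, so a fit that blocks on replicate number was read beside it. In that paired fit 3 of 10 genes were lower and 0 higher, against 3.08% and 2.52% of 12637 tested genes, or 5.59% in either direction. Of the erythroid and platelet markers, Car2 passed without pairing, at 1.08 CPM in CD45RBhi and 4.63 CPM in CD45RBlo libraries (adjusted p = 0.0247, edgeR), and the other 8 tested did not. The part of the cells behind that list in these differences was not tested. The median log2 fold change of the 10 genes was -0.37 (-0.39 paired), that of all tested genes -0.004 (-0.005 paired).

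Spry1 had the largest difference. It was 1.45, 0.85, 1.75 and 1.55 log2 units lower in CD45RBhi in pairs 1 to 4. The fitted value was -1.43 ± 0.346 (adjusted p = 0.209, edgeR) and -1.39 ± 0.332 paired (adjusted p = 0.031). Its mean was 0.781 ± 0.162 CPM in CD45RBhi and 2.12 ± 0.708 CPM in CD45RBlo libraries (SD, n = 4 each), that is 12 to 19 against 29 to 63 counts. Dusp6 was lower by 0.80, 0.79, 0.50 and 0.39 log2 units in the pairs, with means of 11.6 ± 1.58 and 17.9 ± 3.26 CPM in CD45RBhi and CD45RBlo (-0.63 ± 0.141, adjusted p = 0.175, edgeR). With pairs it was -0.62 ± 0.121 (adjusted p = 0.0139). Dusp2 was at 106.4 ± 10.4 CPM in CD45RBhi and 136.7 ± 13.6 CPM in CD45RBlo (-0.36 ± 0.0903, adjusted p = 0.227, and -0.36 ± 0.0668, adjusted p = 0.0106 paired, edgeR). DESeq2 without pairing called the same genes (adjusted p = 0.0261 for Dusp2, 0.00965 for Dusp6 and 0.0316 for Spry1). Of all genes it called 144, against 17 with edgeR without pairing, so it passed genes more readily here.

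The paired calls depended on the pairs included. Without pair 1 none of the 10 genes passed (adjusted p = 0.0557 for Dusp2, 0.0614 for Dusp6 and 0.0825 for Spry1, edgeR). The same was so without pair 3 (0.0781, 0.0589 and 0.152), and without pair 4 Spry1 did not pass (0.123). Their log2 fold changes stayed between -0.43 and -0.32 for Dusp2, -0.69 and -0.56 for Dusp6, and -1.58 and -1.28 for Spry1 when a pair was left out.

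Further genes pointed the same way without passing. In all, 6 of 10 genes were lower in CD45RBhi in 4 of 4 pairs (Dusp1, Dusp2, Dusp6, Spry1, Spry2 and Spred1), and 0 were higher in 4 of 4, against 14.4% and 14.6% of the genes tested with pairs. Dusp1 had nearly the same difference in every pair, from -0.34 to -0.28 (paired fit -0.32 ± 0.139, adjusted p = 0.211, edgeR). Spred1 was at -0.67 ± 0.211 (adjusted p = 0.0851), Spry2 at -0.57 ± 0.325 (0.34) and Spred2 at -0.42 ± 0.217 (0.285) in the same fit.

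Dusp5, Dusp10 and Dusp4 had 2 pairs on each side of 0. For Dusp5 the paired log2 fold change was 0.03 with a 95% interval of -0.10 to 0.16, and for Dusp10 0.04 with -0.13 to 0.22. For Dusp4 the value was 0.22 and the interval, -0.42 to 0.86, was wide at its low counts.

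**Figure D4:**
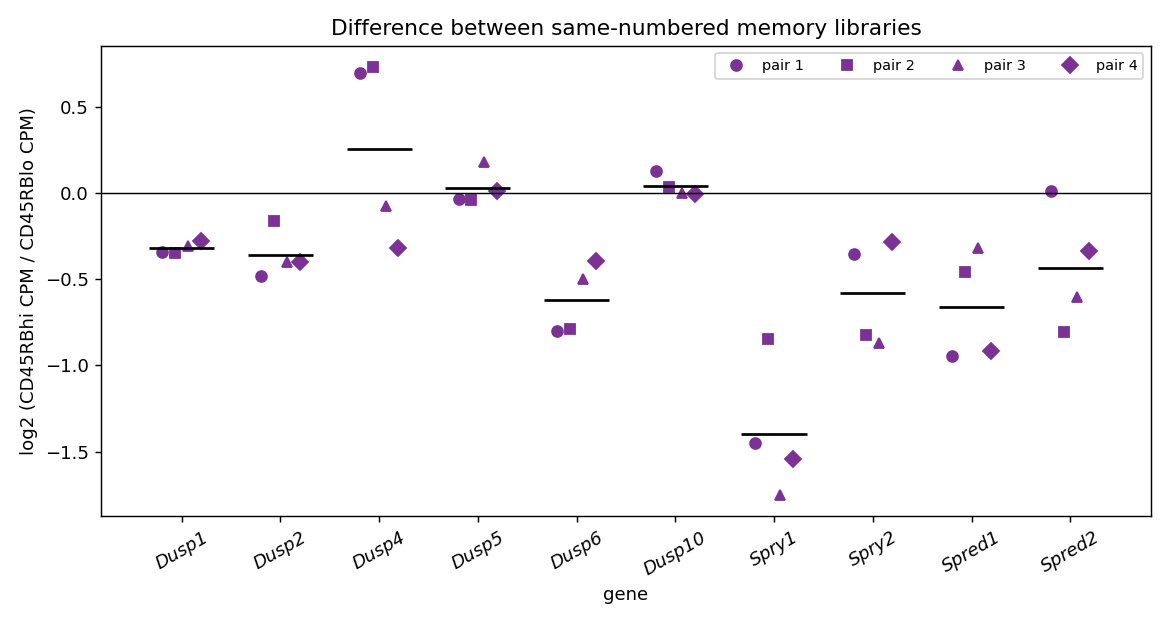
Log2 ratio of CD45RBhi over CD45RBlo CPM (y axis) for each gene in each of the 4 same-numbered pairs of memory libraries. Markers are pairs and lines are means over pairs. All 4 points lie below 0 for Dusp1, Dusp2, Dusp6, Spry1, Spry2 and Spred1, with Spry1 lowest at -1.75 to -0.85.

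Other genes of the pathway were read from lists chosen by role. Of all tested genes, 22.3% rose and 19.1% fell in CD45RBhi against naive, and 22.4% and 19.8% in CD45RBlo. The counts of each list are to be read beside these shares. Of 15 further dual-specificity phosphatases and relatives, 14 were tested. Against naive, 4 rose and 1 fell in CD45RBhi, and 5 rose and 2 fell in CD45RBlo. Dusp14, a small phosphatase that restrains T cell receptor signalling, was at 10.7 ± 2.28 CPM in CD45RBhi, 12.8 ± 2.18 in CD45RBlo and 0.109 ± 0.146 in naive libraries. Dusp3 was at 1.33 ± 0.222, 1.14 ± 0.543 and 0.21 ± 0.048 CPM and Dusp18 at 1.44 ± 0.867, 0.98 ± 0.355 and 0.111 ± 0.101 CPM in the same order. Like Spry2, these 3 genes lay below the filter on low counts (0.483 CPM) in naive libraries and entered the test through the memory groups alone, so they had to differ and their calls support nothing. Dusp9, which rose in CD45RBlo alone, also averaged below that filter in naive libraries (0.305 CPM), so its call supports nothing either. The same is so for the fall of Styxl1 in CD45RBlo, where it averaged 0.126 CPM. Dusp19, which cleared the filter in naive libraries on average (5.38 ± 0.509 CPM), rose by 0.80 log2 units in CD45RBhi and 0.87 in CD45RBlo (adjusted p = 0.00153 and 0.00076, edgeR).

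Of 13 other Sprouty, SPRED and RAS brake genes 9 were tested, with 2 higher and 2 lower in CD45RBhi and 3 higher and 2 lower in CD45RBlo against naive. In CD45RBhi these counts lie near the shares of all tested genes. Those higher include Dab2ip in both groups, at 0.428 and 0.543 CPM on average and at 0 in naive libraries. It entered the test through the memory groups alone, so its calls support nothing. Rasa3, a RAS inactivator, rose to 1275 ± 107 CPM in CD45RBhi and 1368 ± 105 in CD45RBlo, against 908.5 ± 48.8 in naive libraries. Rasal1 (-1.29 and -1.02) and Rasa2 (-0.53 and -0.51), of the same enzyme class, fell in CD45RBhi and CD45RBlo. Spry3, Spry4 and Spred3 were among those too low to be tested.

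Of 9 activators of RAS all were tested, with 2 higher and 2 lower in CD45RBhi and 3 higher and 2 lower in CD45RBlo. In CD45RBhi these counts, too, lie near the shares of all tested genes. Rasgrp3, lower in both, averaged 0 CPM in CD45RBhi, 0.0576 in CD45RBlo and 1.345 in naive libraries. It entered the test through the naive group alone, so its calls support nothing. Rasgrp1, which couples the T cell receptor to RAS, fell (-0.62 and -0.70), and the adaptor Lcp2 rose (0.53 and 0.47) in CD45RBhi and CD45RBlo. Of 20 genes of the RAS, RAF, MEK and ERK chain 9 rose and 1 fell in each memory group. Those that rose included the MEK2 gene Map2k2 (0.58 and 0.58) and the phosphatase Ptpn11 (1.31 and 1.64), and Rras2, a RAS relative, fell (-2.06 and -2.31). Of 15 tested genes of the JNK and p38 chain 6 rose and 2 fell in CD45RBhi, and 5 rose and 3 fell in CD45RBlo. Mapkapk3 (0.75 and 0.94) and Map2k3 (0.66 and 0.65) were among those that rose. Mapk12, among those that rose in CD45RBhi, averaged 0.200 CPM in naive libraries, below the filter on low counts, so its call supports nothing.

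Of 25 tested genes of the response to ERK and other early signals, 7 rose and 8 fell in CD45RBhi against naive. In CD45RBlo 8 rose and 8 fell. The list also holds transcription factors that act in that response, so the counts are not of induced genes alone. Phlda1, which rose in CD45RBlo, averaged 0.215 CPM in naive libraries. Egr3, which fell in both, averaged 0.455 CPM in CD45RBhi and 0.201 CPM in CD45RBlo. These averages lay below the filter on low counts, so the calls of Phlda1 and Egr3 support nothing. Egr1, an ERK-induced transcription factor, fell to 17.5 ± 4.46 CPM in CD45RBhi and 18.1 ± 4.08 in CD45RBlo, against 120.4 ± 15.4 in naive libraries. Zfp36, an mRNA decay factor, fell (-0.59 and -0.70), and Ier3 (2.78 and 2.71) and Btg2 (2.03 and 2.08) rose in CD45RBhi and CD45RBlo. Among 16 tested genes of tissue dissociation and heat shock, which shares members with the list of early genes, 6 rose and 4 fell in CD45RBhi, and 8 rose and 4 fell in CD45RBlo. Its summed level was 2616 to 3451 CPM in CD45RBhi, 2382 to 3624 in CD45RBlo and 1991 to 2289 in naive libraries, with Hspa8 rising by 0.91 and 0.84 log2 units and Fos falling by 3.55 in CD45RBhi. Hspa1b, which rose in both, and Hspa1a, which rose in CD45RBlo, each averaged 0.048 CPM in naive libraries. Fos averaged 0.415 CPM in CD45RBhi. These averages lay below the filter on low counts, so those calls support nothing. The part of handling in the levels of Dusp1 and the other early genes was not tested.

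Between the memory groups, edgeR without pairing called 0 genes of these lists, against 0.124% of all tested genes. The paired fit called Rasgrp2, an exchange factor of RAS-like proteins (-0.41, adjusted p = 0.00192) and Ptpn11 (-0.33, 0.0244) lower in CD45RBhi, and Myc (0.75, 0.000245) and the p38 gene Mapk11 (0.51, 0.0246) higher. That is 1 of 8 tested RAS activators, 1 of 20 chain genes, 1 of 21 early genes and 1 of 15 JNK and p38 genes. Of all genes tested with pairs 5.59% passed in either direction, so these calls set the lists apart in no way. No further phosphatase or RAS brake of the lists passed.

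The genes whose log2 CPM followed a brake gene most closely over the 11 libraries are given as a description, since libraries of a group share their level. For Dusp5 they were Zyx and Lgals1 (Pearson r = 0.998 each), and 1442 genes had r above 0.9. For Dusp6 they were Ephx1 and Stx2 (r = 0.985 and 0.983), for Dusp10 Cd24a and Slc43a2 (0.991 and 0.985), and for Dusp2 Zfp773 and Igf1r (0.975 and 0.971). For Spry2 they were Itga4 and Gpx8 (0.994 each). For Spry1, whose lowest levels were in CD45RBhi, the nearest were Adgrg3 and Smg5 (0.884 and 0.878), and 0 genes had r above 0.9.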

How the data were processed

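RNA sequencing counts of 11 libraries were used, 4 CD45RBhi, 4 CD45RBlo and 3 naive. The authors deposited unnormalized counts of reads, 1 value per gene and library. SAMtools, featureCounts and DESeq2 appear in the submitters' processing notes without versions, as do mm10 and GRCm38. For the aligner, annotation release and strandedness, nothing is given in the sources used here. All columns were assigned by their names, and no replicate libraries were identical.

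Genes were kept with filterByExpr (minimum count 10), which left 13735 of 52636, with TMM scaling. A model of group means over all libraries, without covariates, was tested two-sided by edgeR's quasi-likelihood method, and p-values were adjusted by Benjamini-Hochberg over all genes tested (threshold 0.05). Standard errors are the log2 fold change over the root of F. RPKM used the union of exons in GENCODE M21. The alternatives were RLE scaling, library size only, no filter, DESeq2, each library left out, the compared groups alone and a replicate block. The block used the compared groups alone, and against naive only the replicate numbers that naive libraries have. Replicate blocks with a pair left out were added after the data were seen. R 4.3.3, edgeR 4.0.16, DESeq2 1.42.0 and matplotlib 3.10.9 were used, and the fits were tested on simulated data.

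After subtraction of group means, CD45RBhi and CD45RBlo libraries of 1 number correlated at 0.191 to 0.452 over genes, and differently numbered ones at most at 0.0284, so the numbers were taken to pair the memory libraries. The labels do not state this. With naive libraries, equal numbers reached at most 0.0565 and were not taken as pairs.

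The 10 genes and the lists were chosen with earlier results of these data known. Of each list, up to 4 genes with the smallest adjusted p per comparison could be named, and the 2 genes most like each member. The Dusp4 promoter, and proteins, were not used here. Sequences are RefSeq's on GRCm38.p6. Values of a few list genes are not reported here.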

Additional observations from a re-analysis of the deposited data

Results flagged for a closer look

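Of 20 groups of 4 memory libraries examined (10 genes in CD45RBhi and in CD45RBlo), 2 held a library far from the other 3, and chance marks about 1 in 20. Dusp10 was at 50 CPM in CD45RBhi replicate 1, against 27.6 to 30.7 CPM in the other CD45RBhi libraries. Spred2 was at 4.87 CPM in CD45RBlo replicate 1, against 3.88 to 4.01 CPM in the other CD45RBlo libraries.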

How the results depend on the processing

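Every alternative run kept the direction of all 10 genes against naive, including library size alone, which moved the median of all genes to -0.16 in CD45RBhi and -0.14 in CD45RBlo, against -0.01 in each with TMM. The number of the 10 genes called stayed at 9 or 10 in CD45RBhi and 8 or 9 in CD45RBlo against naive. The replicate block, with numbers that do not pair memory and naive libraries, gave 3736 genes of all in CD45RBhi against naive, against 5694. That fit also held fewer libraries, those of the compared groups whose replicate number occurs among the naive libraries. Between the memory groups 0 of the 10 genes became 3 with DESeq2 and 3 with the replicate block, and 0 to 3 when pairs were left out of the block. Leaving out single libraries without a block left 0. Of all genes, 17 became 144 with DESeq2, 4 with the compared groups alone, 707 with the replicate block (318 higher, 389 lower), 6 to 15 without single libraries, and 344, 667, 167 and 300 with the block without pair 1, 2, 3 and 4. Signs turned only for values that were not called between the memory groups. Dusp5 turned to -0.01 without CD45RBhi replicate 1, -0.029 without CD45RBlo replicate 3 (lowest; highest 0.0897) and -0.021 with the block without pair 3. Dusp10 (range -0.19 to 0.25) turned to -0.19 without CD45RBhi replicate 1, -0.03 without CD45RBlo replicate 2 and -0.02 without CD45RBlo replicate 3, and Dusp4 (range -0.11 to 0.43) to -0.11 without CD45RBlo replicate 1. The cause was not tested. The 150 bases before the start are part of the 300-base window, so shares of promoters with a motif could not rise there. They were 1.36% for the full CRE and 0.916% for the CArG box. Counts of 12 to 63 in memory libraries limit Spry1, Spry2 and Dusp4.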

Other observations

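Replicate 1 stood apart in both memory groups for several of these genes. Dusp10 was at 50 CPM in CD45RBhi replicate 1 and 45.7 CPM in CD45RBlo replicate 1, with 26.9 to 30.9 CPM in the other 6 memory libraries. Spred2 was at 4.92 and 4.87 CPM, with 2.21 to 4.01 CPM in the others, and Spred1 was highest of its group in replicate 1 at 3.76 CPM in CD45RBhi and 7.25 CPM in CD45RBlo. Dusp5 was likewise highest there, at 167.8 and 171.7 CPM. Dusp4 ran the other way, at 1.10 CPM in CD45RBhi replicate 1 and 0.680 CPM in CD45RBlo replicate 1, with 1.65 to 2.88 CPM in the others. This pattern over genes was noticed after the data were seen and was not tested beyond the check of single libraries given for Dusp10 and Spred2 above.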
